A study of Mus musculus with 186 samples.

Results

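The collagen genes were examined as a family: every gene symbol of the deposited table that reads Col, a number, the letter a and a number. This rule found 44 of the 28338 symbols, and all 44 were followed across 6 brain regions, 2 ages and 3 genotypes in 186 RNA libraries of mouse brain. The groups were wild type mice (WT), mice labelled Akap11 +/- (HET) and mice labelled Akap11 -/- (KO), at 4 and at 12 weeks of age. Akap11 encodes an anchoring protein for protein kinase A, and the series presents the mutants as a model for bipolar disorder and schizophrenia. The regions, dissected from frozen brain, were 2 of cortex, prefrontal (PFC) and somatosensory (SSC), and hippocampus (HP), thalamus (TH), striatum (STR) and substantia nigra (SN), with 5 or 6 libraries in each of the 36 groups. The sources used here do not give the strain or sex of the mice or how the Akap11 allele was made. Nothing in the labels says whether libraries of a group came from separate litters or dissections, so the p-values measure only the spread between these libraries. Sample numbers recur across regions: of 36 combinations of age, genotype and number, 34 occur in more than 1 region, and the labels do not say whether these are the same mice. Tests between regions, and of KO effects between regions, take the libraries as independent. With sample number as a block, 203 and 208 member tests between regions were called at 4 and 12 weeks, against 203 and 206 without it.

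Collagens are secreted or membrane-bound proteins whose chains wind around one another into trimers. Fibrillar collagens build the fibres of connective tissue, and in brain they are made mostly by fibroblasts of the meninges and around vessels. Type IV chains form the sheet of the basement membrane under endothelial cells, where the multiplexins Col15a1 and Col18a1 are also found. Type VI chains form beaded filaments, the fibril-associated collagens decorate fibres, and the transmembrane collagens stay on the cell that makes them, among them Col25a1 on neurons.

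The level of Akap11 followed the KO label in each of the 12 region and age sets, and the WT and HET labels in 11 of them. Akap11 was lower in every KO library than in every WT and HET library in 12 of 12 sets, with log2 changes against WT between -4.30 and -3.65 and a highest adjusted p of 1.95e-05 (edgeR quasi-likelihood test). HET libraries lay below every WT library in 11 of 12 sets. In 4-week SN they did not: 1 library labelled WT, number 92, had an Akap11 level of 43.6 CPM (the gene's count scaled to its library's total). That is below every HET library there (96.4 to 138 CPM), so its label and its level do not match. Akap11 in HET against WT was not called in 4-week SN (adjusted p = 0.548, edgeR) or 4-week HP (adjusted p = 0.273). Several 4-week libraries differed from the rest in markers of cell types or of other regions: WT 913, WT 914 and WT 23 in TH, KO 51, KO 161, KO 163 and WT 92 in STR, and WT 42, WT 92, KO 44 and KO 91 in SN. Genotype calls and age counts that rest on them are given with and without them. In 4-week SN, the 3 libraries with the highest sums of 11 fibroblast and meningeal markers (HET 941, HET 93 and KO 163) held 688 to 1417 CPM of those markers and 1211 to 3322 CPM of all collagens together, against 35.8 to 253 CPM and 471 to 824 CPM in the other 14.

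The stretches upstream of 3 genes are shown because the results below turn on them: Col18a1 in thalamus, Col25a1 in striatum and Col3a1 with age. They come from RefSeq (GRCm38.p6), which held starts for 35 of the 44 genes, are written 5′ to 3′ on the gene's own strand, and leave out bases that lie in an annotated exon. Capitals mark the motif CCAAT, the motif GGGCGG and the motif TATAAA on either strand. On the strand printed, a match on the other strand reads ATTGG for the first motif, CCGCCC for the second motif and TTTATA for the third. The Col18a1 stretch, chr10:77166549-77166780 on the minus strand, ends 18 bases before the first of 2 annotated starts. The Col25a1 stretch, chr3:130180595-130180844 on the plus strand, and the Col3a1 stretch, chr1:45311288-45311537 on the plus strand, end at the start.
Col18a1: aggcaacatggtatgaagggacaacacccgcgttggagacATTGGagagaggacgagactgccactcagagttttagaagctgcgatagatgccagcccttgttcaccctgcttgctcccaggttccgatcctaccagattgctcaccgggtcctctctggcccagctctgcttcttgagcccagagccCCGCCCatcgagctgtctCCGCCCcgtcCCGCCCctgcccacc
Col25a1: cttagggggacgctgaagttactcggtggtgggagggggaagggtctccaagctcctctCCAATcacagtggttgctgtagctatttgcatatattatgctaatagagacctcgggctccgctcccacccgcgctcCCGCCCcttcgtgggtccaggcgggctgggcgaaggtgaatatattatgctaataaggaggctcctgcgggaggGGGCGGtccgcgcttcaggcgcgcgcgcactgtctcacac
Col3a1: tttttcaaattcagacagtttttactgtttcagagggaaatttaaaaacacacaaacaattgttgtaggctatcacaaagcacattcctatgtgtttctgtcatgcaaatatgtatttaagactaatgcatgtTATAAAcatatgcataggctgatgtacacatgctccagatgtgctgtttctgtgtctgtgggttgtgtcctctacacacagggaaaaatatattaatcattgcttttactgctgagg
Col18a1 held CCAAT at 210 and GGGCGG at 61, 43 and 33 bases before its start. Col25a1 held CCAAT at 191 and GGGCGG at 114 and 40 bases before its start. Col3a1 held neither, and had TATAAA at 117 bases. Of all 32851 upstream windows of 250 bases, 33.8% held CCAAT, 32.7% GGGCGG and 12.4% TATAAA, so these letters are common. A match is a description of the sequence and not a tested site.

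All 44 genes had counts somewhere, and 37 averaged at least 1 CPM over the 186 libraries. Compared per length (CPM per kb of the longest transcript), the highest mean was that of Col25a1, the transmembrane collagen of neurons whose shed ectodomain is found in amyloid plaques, at 10.6. Next came Col6a1, a chain of the type VI filament, at 10.03, then the major type IV chains Col4a2 at 9.93 and Col4a1 at 7.62, and Col9a3, a fibril-associated chain, at 6.89. With lengths taken as the union of exons the same 5 genes led, with Col4a2 first and Col25a1 at rank 4. The least abundant was Col10a1, the collagen of hypertrophic cartilage, which was at 0 in 24 libraries and did not pass the filter on low counts in any set. In 3 of the 12-week sets other low genes also failed it: Col6a5 in SSC and TH, Col9a1 in STR, and Col28a1 in TH.

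**Figure D1:**
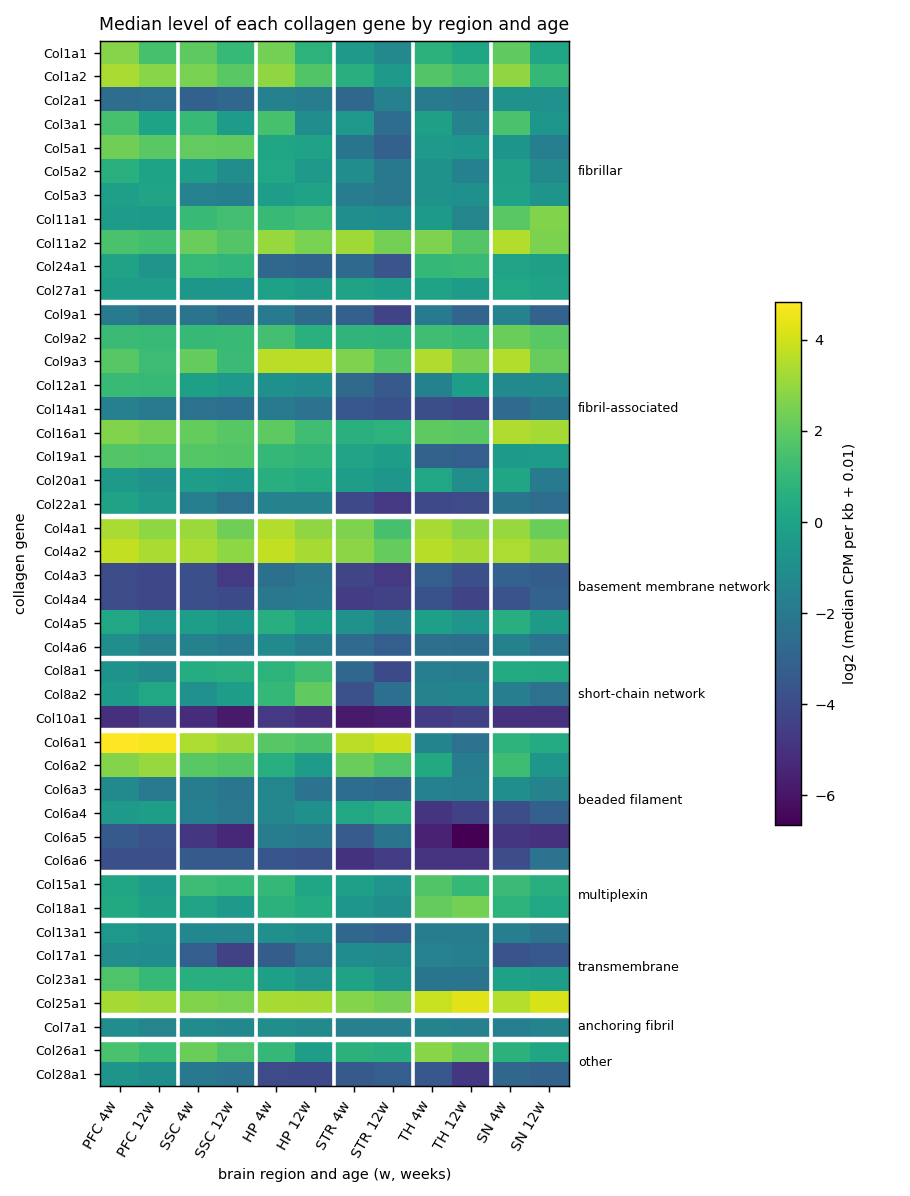
Median level of each of the 44 collagen genes (rows, grouped by structural class) in each region at 4 and 12 weeks (columns), as log2 of CPM per kb of the longest transcript plus 0.01. Col25a1, Col4a1, Col4a2 and Col6a1 stand out as bright rows, and Col6a1 turns dark in TH.

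Regions differed in which collagens they held, and for 36 of the 44 genes the region with the highest median was the same at both ages. The summed collagens were highest in PFC, with a median of 778 CPM at 4 weeks and 625 CPM at 12 weeks, and lowest in STR, with 398 and 305 CPM. Summed fibroblast and meningeal markers were also highest in PFC (medians 212 and 218 CPM) and lowest in STR (41.4 and 31.5 CPM). Between these extremes the order of the regions was the same at 4 weeks and differed at 12 weeks. The part of attached meninges in the collagen levels was not tested. Each region was tested against the mean of the other 5 with edgeR, and members were counted beside the share of all tested genes called in the same direction.

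STR was the poorest region. At 4 weeks 34 of 43 tested members were lower there and 6 higher, against 39.1% and 34.7% of all genes, and the members' median log2 difference was -1.12 against -0.05 for all genes. At 12 weeks 32 were lower and 7 higher, against 40.1% and 39%, with a median of -1.07. All 6 type IV chains, 9 of 11 fibrillar and 8 of 9 fibril-associated genes were lower at 4 weeks. Col8a1, a short-chain network collagen, was lower by -2.71 at 4 weeks and -4.12 at 12 weeks on the log2 scale. Its 4-week STR libraries ranged from 0.179 to 1.46 CPM with a median of 0.685, against medians between 1.47 and 8.73 in the other regions. Col5a1, a minor chain of collagen fibrils, was lower by -1.85 and -3.34. Of the members higher in STR, 4 at each age were type VI chains: Col6a4 by 2.97 and 2.85, Col6a5 by 1.16 and 3.36, Col6a1 by 1.83 and 2.50, and Col6a2 by 0.49 and 1.14. The others were Col17a1, the transmembrane collagen of epithelial anchoring junctions (1.497 and 1.53), Col11a2 (0.45 and 0.44) and, at 12 weeks, Col2a1, the main fibril of cartilage (0.36).

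PFC was rich in type VI chains, of which 5 of 6 were higher there at 4 weeks. In all 25 members were higher and 10 lower at 4 weeks, against 36.6% and 33.1% of all genes, and again 25 and 10 at 12 weeks, against 38.7% and 33.8%. Col6a1 was higher by 2.75 and 3.28 on the log2 scale, with 4-week libraries between 62.1 and 195 CPM (median 117). Its 4-week medians elsewhere were 50.7 in STR, 43.7 in SSC, 14.5 in HP, 7.08 in SN and 1.45 CPM in TH, and the PFC range overlapped those of STR, SSC and SN. Col22a1, a collagen of tissue junctions, was higher by 2.61 and 2.79, and was the 1 gene of the 44 whose top region overlapped no other at either age: PFC held 6.06 to 11.0 CPM at 4 weeks and 4.40 to 9.13 CPM at 12 weeks, and the highest library elsewhere held 4.12 and 4.22 CPM, both in HP. How many of all genes are separated in this way was not counted, so it is not known whether this is unusual. Col28a1, known from peripheral nerve, was higher by 2.45 and 2.67. Col9a3 (-1.20 and -1.05) and Col11a2 (-1.37 and -0.83) were lower in PFC.

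The neighbouring SSC showed fewer differences. At 4 weeks 14 members were higher and 14 lower, against 31.5% and 32.9%, close to the shares of all genes, and at 12 weeks 22 were higher and 11 lower, against 35.8% and 35%. Col5a1 was higher by 1.78 and 2.64, Col19a1, a fibril-associated collagen made by some neurons, by 1.89 and 2.05, and Col24a1, a fibrillar collagen, by 1.55 and 1.98. The transmembrane collagen Col17a1 was lower by -1.19 and -2.53, and Col6a5 by -1.32 and -1.72.

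In HP 26 members were higher and 6 lower at 4 weeks, against 32.2% and 29.9%, and 23 and 10 at 12 weeks, against 36.5% and 33.6%. All 6 type IV chains were higher at 4 weeks. Col4a4, a chain of the specialised type IV network of kidney and ear, was higher by 1.90 and 2.44. Its HP median was 2.32 CPM at 4 weeks, against 0.321 to 0.684 CPM elsewhere. Col8a2, the partner of Col8a1, was higher by 2.51 and 3.05, and Col6a5 by 2.47 and 3.25. Col24a1 was lower by -2.32 and -1.98, and Col28a1 by -1.32 and -1.62. The HP libraries also held varying amounts of choroid plexus markers. Their sum ranged from 22.8 to 2202 CPM at 4 weeks (median 922) and from 379 to 5044 CPM at 12 weeks (median 2586). In the other regions the medians lay between 4.12 and 23.6 CPM. The part of choroid plexus in the HP differences was not tested.

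In TH members were more often lower than higher: 22 against 12 at 4 weeks, where the shares of all genes were 38.5% and 35.8%, and 23 against 12 at 12 weeks, where they were 40.4% and 38.1%. Col6a1 was lower by -4.16 and -5.34, and its median of 0.769 CPM at 12 weeks stood against 104 CPM in PFC. Col19a1 was lower by -3.50 and -4.10. Col18a1, the basement membrane collagen whose end fragment is endostatin, was higher by 1.94 and 2.57. At 12 weeks its TH libraries (17.1 to 40.9 CPM, median 29.7) lay above every library of every other region, the highest of which was an SN library at 16.7 CPM. At 4 weeks the TH range of 11.0 to 67.6 CPM overlapped those of HP, PFC and SN. Below TH the 4-week medians were 9.48 CPM in SN, 9.17 in HP, 6.91 in PFC, 5.75 in SSC and 3.65 in STR, and the ranges of each neighbouring pair overlapped. Col24a1 (1.65 and 2.21) and Col26a1 (1.47 and 1.54) were also higher in TH.

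SN had the most members higher at 4 weeks together with HP: 26 higher and 8 lower, against 41.5% and 35%, and 10 of 11 fibrillar genes were among the higher. The 3 libraries rich in fibroblast markers are part of that count. At 12 weeks 18 were higher and 13 lower, against 40.3% and 38.5%, near the shares of all genes. Col11a1, a chain of cartilage-type fibrils, was higher by 1.64 and 2.63. Its SN libraries ranged from 27.3 to 79.1 CPM at 12 weeks with a median of 48.6, and overlapped those of HP (9.15 to 37.3) and SSC (8.60 to 30.2). Col2a1 (1.88 and 1.38) and Col16a1, a fibril-associated collagen (1.47 and 1.59), were also higher, and Col6a4 (-2.46 and -1.81) and Col17a1 (-1.55 and -1.48) lower. In these bulk samples fewer cells of a type and less RNA per cell cannot be told apart.

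Chains that assemble together did not all keep the same proportion. Ratios were taken per length in each library, over libraries with at least 10 counts of both genes. Col4a1 and Col4a2 face away from each other on chromosome 8 with starts that overlap by 22 bases, and their transcripts moved together: the ratio of Col4a2 to Col4a1 lay between 0.912 and 1.91 (median 1.32) over 186 libraries, while Col4a2 itself spanned a 5.12-fold and Col4a1 an 8.23-fold range. The sources used here do not say whether the counting used the strand, so reads of the overlapping ends could be shared. Col1a2 to Col1a1, the chains of type I collagen, which lie on different chromosomes, ranged from 0.959 to 3.65 while the genes spanned 333-fold and 606-fold ranges.

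The type VI and type IX chains behaved otherwise. Col6a2 to Col6a1 ran from 0.0991 to 9.02, with a median of 0.223 in STR and 2.59 in TH, and Col6a3 to Col6a1 from 0.00393 to 6.55. Col9a2 to Col9a3 had a median of 0.184 in HP and 0.712 in SN, and Col9a1 was low against Col9a3, with a median ratio of 0.0283. Col4a6 to Col4a5 lay between 0.0811 and 0.755 (median 0.312), and Col4a4 to Col4a3, in the 160 libraries with enough counts, between 0.379 and 2.75. The libraries share regions and ages, so these ranges are descriptions.

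**Figure D2:**
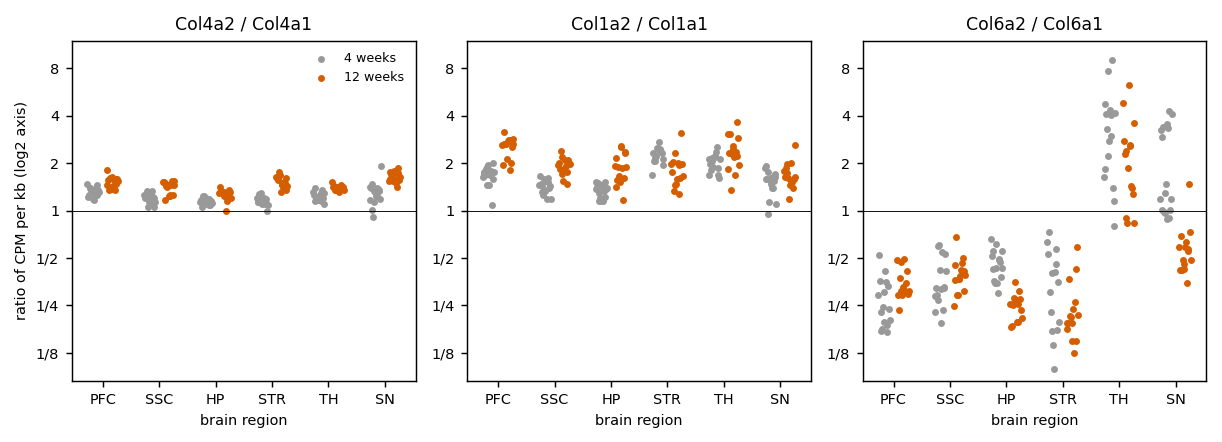
Ratio of CPM per kb (log2 axis) of partner chains in each library by region, grey for 4 and orange for 12 weeks; the line marks equal levels. Col4a2 to Col4a1 stays between 0.912 and 1.91, whereas Col6a2 to Col6a1 has a median of 0.223 in STR and 2.59 in TH.

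Collagen genes were lower at 12 than at 4 weeks in every region. Of 43 members tested, 16 fell in PFC, 20 in SSC, 21 in HP, 22 in STR, 22 in TH and 24 in SN, against 18%, 23.7%, 22.9%, 21.4%, 21.3% and 19.1% of all genes called lower. In the same order 0, 0, 1, 3, 2 and 4 members rose, against 20.2%, 26.3%, 20.3%, 23.4%, 22.6% and 14.5% of all genes. In all, 125 tests called a member lower and 10 higher, and the members' median log2 change ran from -0.23 in PFC to -0.52 in SN. The ages are separate sets of mice and libraries, so age and cohort cannot be told apart.

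By class, and over the 6 regions, 37 of 66 tests of fibrillar genes were lower and 2 higher (median -0.51), 26 of 36 of type IV chains were lower and 0 higher (median -0.50), and 10 of 12 of the multiplexins were lower. Of the tests of type VI chains 12 of 36 were lower and 3 higher, and of transmembrane collagens 7 of 24 were lower and 3 higher; differences between classes were not tested. The 7 genes lower in all 6 regions were Col1a1, Col1a2, Col3a1 and Col5a2 of the fibrils and Col4a1, Col4a2 and Col4a5 of the basement membrane.

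Col3a1, the fibrillar collagen of vessel walls and other pliable tissue, fell most. In HP its 16 libraries at 4 weeks ranged from 10.2 to 25.1 CPM with a median of 15.6, and its 15 libraries at 12 weeks from 1.51 to 4.27 CPM with a median of 2.66. The ages did not overlap in HP, SSC, STR and TH. In STR the medians were 3.76 and 0.901 CPM. The log2 changes ran from -1.52 ± 0.19 (SE) in SSC to -3.02 ± 0.49 in SN, with adjusted p between 3.62e-13 and 1.64e-05. Without the 3 SN libraries rich in fibroblast markers the SN change of Col3a1 was -1.84, that of Col1a1 went from -2.98 to -1.40 and that of Col1a2 from -2.58 to -1.20, each still called, and the count of SN members called lower went from 24 to 18. Among WT libraries alone the 3 SN changes were -1.46, -1.11 and -0.75 and none was called.

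Col4a1, whose protein pairs with that of Col4a2 in every vascular basement membrane, fell by less but in narrow groups. Its medians went from 68.4 to 48.2 CPM in PFC, 56.3 to 33.4 in SSC, 74.3 to 50.1 in HP, 40.6 to 18.4 in STR, 65.8 to 45.3 in TH and 55.3 to 31.7 in SN. The STR ranges, 29.7 to 65.0 and 13.2 to 23.4 CPM, did not overlap, and the other 5 did. The log2 changes ran from -0.49 ± 0.05 in PFC to -1.19 ± 0.09 in STR. Those of Col4a2 ran from -0.28 to -0.78 and those of Col4a5 from -0.41 to -0.99.

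Against this, 9 genes rose somewhere, Col25a1 in 2 regions and the others in 1 each, and Col14a1 was the 1 gene called in neither direction anywhere. Col25a1 rose in SN by 0.61 ± 0.19 and in TH by 0.42 ± 0.08, where its median went from 97.1 to 132 CPM with overlapping ranges, and fell in SSC (-0.21) and STR (-0.17). Col12a1, a fibril-associated collagen, rose in TH by 1.09 ± 0.26 and fell in STR by -1.57. Col8a2 rose in STR by 1.79 ± 0.63 and fell in SN by -1.80, and Col6a5 rose in STR by 1.38 ± 0.41 and fell in TH by -2.78, where its 12-week median was 0 CPM. Col11a1 rose in SN by 0.78 and fell in TH by -0.90. Col18a1 fell in 5 regions, and in TH its change of 0.13 ± 0.12 was not called (adjusted p = 0.388).

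**Figure D3:**
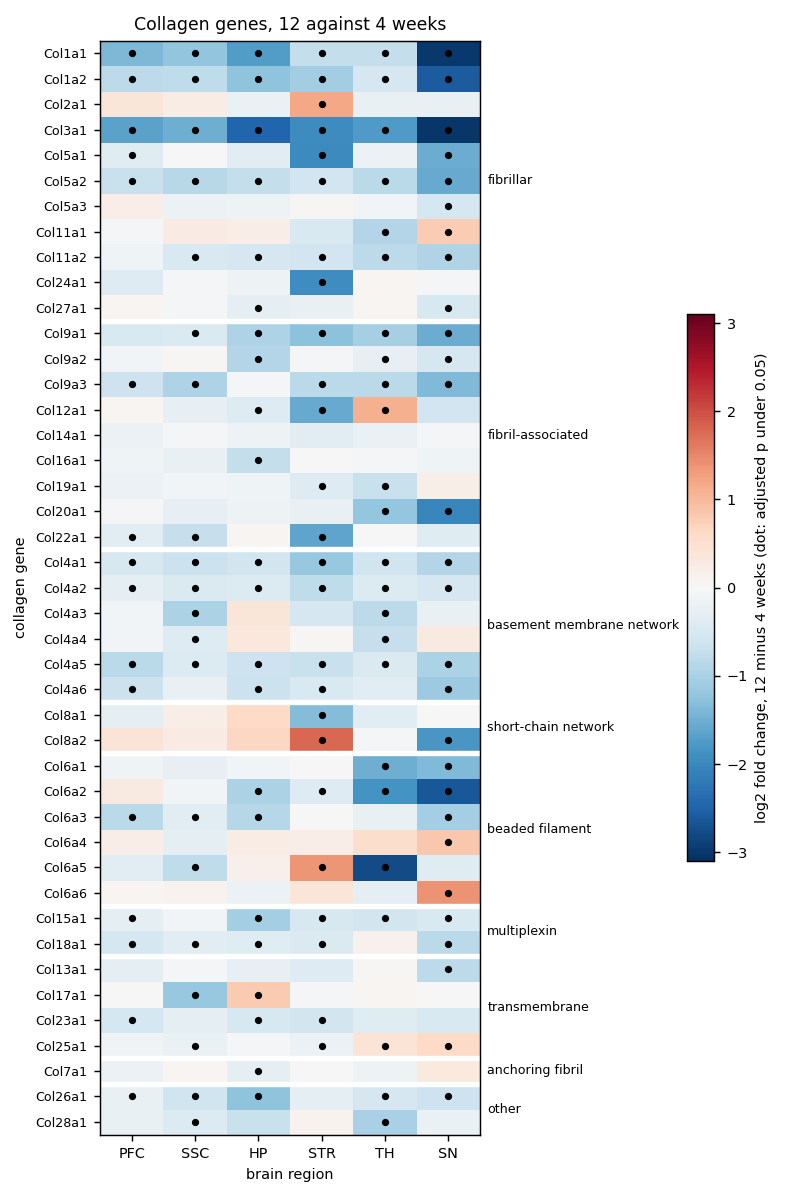
log2 fold change of each tested collagen gene at 12 against 4 weeks in each region, blue for lower and red for higher at 12 weeks, with a dot where the adjusted p was under 0.05. Type I, III and IV rows carry blue cells with dots across the 6 regions, and 10 dots in all lie on red cells.

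Other genes of the pathway were read beside the shares of all genes given above, 18% to 23.7% lower and 14.5% to 26.3% higher. Of 17 partners of collagen in the basement membrane (laminins, nidogens, perlecan, agrin, Sparc and fibronectin), 10 were lower and 1 higher in PFC, 11 and 0 in SSC, 12 and 0 in HP, 13 and 2 in STR, 9 and 1 in TH and 12 and 3 in SN. Of 18 tested genes for collagen synthesis and folding, 5, 5, 6, 5, 7 and 8 were lower in the same order of regions and 3, 2, 2, 0, 1 and 2 higher, so that in PFC, SSC and STR the lower share was near that of all genes. Of the 11 to 13 tested genes for trimming and crosslinking 4 to 8 were lower and 0 to 2 higher, and of 9 or 10 collagen receptors 3 to 6 were lower and 0 or 1 higher. Of 7 or 8 genes for breakdown and its inhibitors 2 or 3 were lower and 0 or 1 higher.

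Markers of the cells that make collagens, and of some other cells, were read beside these counts. In SN 8 of 11 fibroblast and meningeal markers were lower at 12 weeks, with a median log2 change of -1.38, and 0 were higher. In the other 5 regions 0 to 2 of 9 or 10 such markers were lower and the list's median lay between -0.09 and 0.28. Of 10 endothelial markers 5 were higher in PFC and 6 in TH, against 20.2% and 22.6% of all genes, and 0 were lower. In SSC, HP and STR 2, 3 and 2 were lower, near the 23.7%, 22.9% and 21.4% of all genes. Of 9 mural markers 6 were lower in HP, against 22.9%. The summed mural markers had a lower median at 12 weeks in each of the 6 regions, with overlapping ranges. The medians went from 177 to 134 CPM in STR, 190 to 155 in SSC, 202 to 159 in SN, 173 to 137 in HP, 188 to 164 in TH and 160 to 156 in PFC. In STR the 5 markers of cortical and hippocampal excitatory neurons were all lower, with a median of -5.33. Summed oligodendrocyte precursor markers were lower at 12 weeks in each of the 6 regions, without overlap between the ages. Their ranges went from 313 to 524 CPM to 172 to 222 CPM in SN, and from 159 to 219 CPM to 95.4 to 137 CPM in PFC. Summed oligodendrocyte markers had a lower median in each region, from 29806 to 12376.5 CPM in SN, with overlapping ranges in PFC, SSC, HP and TH. The part of these shifts in the collagen changes was not tested. Without the libraries set apart, 14 rather than 22 members were lower in STR, 27 rather than 24 in SN and 19 rather than 22 in TH.

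Genotype moved few collagens. Of 512 member tests of KO against WT over the 12 sets, 7 were called, and 63 (12.3%) had an unadjusted p under 0.05, against 8.73% of all tests. All 7 lay in STR or in 4-week TH. In 4-week STR 4 of 43 members were called, a larger share than the 3.35% of all genes, though it rests on 4 genes. With an unadjusted p under 0.05 in edgeR there were 32.6% of members and 17.9% of all genes. In 12-week STR 2 of 42 were called, near the 4.42% of all genes in a region in which many genes changed. There 7.14% of members and 15.9% of all genes had an unadjusted p under 0.05. In 4-week TH 1 of 43 was called, against 0.0128% of all genes, which is 2 genes. That member was Col18a1, whose rise there was known when the genes were chosen. Its share therefore cannot be compared with that of all genes, and it is 1 of the 7 calls. No member was called in the other regions at 4 weeks (0.0201% of all tests there) or in the 5 regions other than STR at 12 weeks (0.0173%). DESeq2 called 13, among them Col6a4 in 4-week PFC and Col15a1, Col2a1 and Col18a1 in 4-week TH. The share of all genes that DESeq2 called is not given here, so its count says nothing particular about collagens.

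No member was called in HET against WT in edgeR, against 0.00418% of tests at 4 weeks and 0.00622% at 12 weeks. Of 512 member tests 42 (8.203%) had an unadjusted p under 0.05, against 5.39% of all tests, and DESeq2 called 0. KO against HET gave 6 calls of 512, 3 of them in 4-week STR (3.88% of all genes) and 3 in 12-week STR (4.79%). In the other regions KO against HET called 0 members, against 0.00623% of tests at 4 weeks and 0.0149% at 12 weeks. DESeq2 called 3 in 4-week HP, Col18a1, Col2a1 and Col5a3, and its share over all genes is not given here. In edgeR 14 of 43 members there had an unadjusted p under 0.05 (32.6%), against 17.5% of all genes. Summed choroid plexus markers there were 1092 to 2202 CPM in KO and 58.5 to 1259 CPM in HET. Summed thalamic neuron markers were 594 to 1020 CPM in KO and 122 to 562 CPM in HET. Their part in these calls was not tested.

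Col18a1 was higher in KO thalamus at 4 weeks, a difference already known when the genes were chosen. The 6 WT libraries held 17.4, 17.9, 21.3, 18.5, 12.8 and 11.0 CPM, the 5 HET libraries 30.0, 19.4, 33.2, 19.2 and 27.5 CPM, and the 5 KO libraries 34.1, 41.8, 53.4, 40.4 and 67.6 CPM. Every KO library lay above every WT and every HET library, and HET overlapped WT. The means were 16.5 ± 3.86 (SD, n = 6), 25.9 ± 6.33 (n = 5) and 47.4 ± 13.2 CPM (n = 5). KO exceeded WT by 1.52 ± 0.20 on the log2 scale (adjusted p = 0.0118, edgeR), HET exceeded WT by 0.63 ± 0.20 (adjusted p = 0.211) and KO exceeded HET by 0.88 (adjusted p = 0.919).

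The call depended on which libraries entered. Without WT 913, WT 914 and WT 23 the change was 1.30 with an adjusted p of 0.456, without KO 161 the adjusted p was 0.0611, and with the WT and KO libraries fitted alone it was 0.0622. Summed markers of thalamic neurons were 2661 CPM in WT 913 and 3004 CPM in WT 914, against 5148 to 6744 CPM in KO and 6091 to 8504 CPM in HET. Summed endothelial markers were 162 to 277 CPM in WT and 196 to 310 CPM in KO, mural markers 159 to 220 and 171 to 270 CPM, fibroblast and meningeal markers 35.0 to 114 and 39.9 to 83.0 CPM, and choroid plexus markers 8.23 to 40.2 and 14.4 to 26.3 CPM. Of 14 marker lists, that of astrocytes was the 1 whose sums did not overlap: 735 to 1038 CPM in WT and 564 to 702 CPM in KO. Over the 14 lists edgeR called 0 of 87 genes in KO against WT there. An unadjusted p under 0.05 was found for 22 of the 87, a larger share than the 13.9% of all genes. Among them were 3 of 9 mural genes, all higher in KO, 3 of 6 astrocyte and 5 of 6 microglia genes, all lower, and 0 of the endothelial and thalamic neuron genes. DESeq2 called 2 astrocyte genes lower and 1 mural gene higher, and its share over all genes is not given here. The part of these markers in the Col18a1 difference was not tested.

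At 12 weeks the Col18a1 means in TH were 27.5 ± 8.83 CPM for WT, 26.0 ± 4.58 for HET and 35.4 ± 4.00 for KO (SD, n = 5 each). The WT libraries held 19.8, 29.5, 33.3, 17.1 and 37.8 CPM, the HET libraries 33.7, 24.3, 24.7, 25.9 and 21.5 CPM, and the KO libraries 34.6, 35.6, 36.2, 29.8 and 40.9 CPM. Both other genotypes overlapped KO, whose difference from WT was 0.36 ± 0.19 (95% interval -0.01 to 0.73, adjusted p = 0.704). The KO difference was smaller at 12 than at 4 weeks by -1.15 ± 0.29, which did not pass over all genes (unadjusted p = 0.000483, adjusted p = 0.777). Over the 6 regions, 0 of 258 member tests of such a change between ages were called in edgeR, against 0% of all tests. An unadjusted p under 0.05 was found for 20, and the share of all tests with such a p is not given here.

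**Figure D4:**
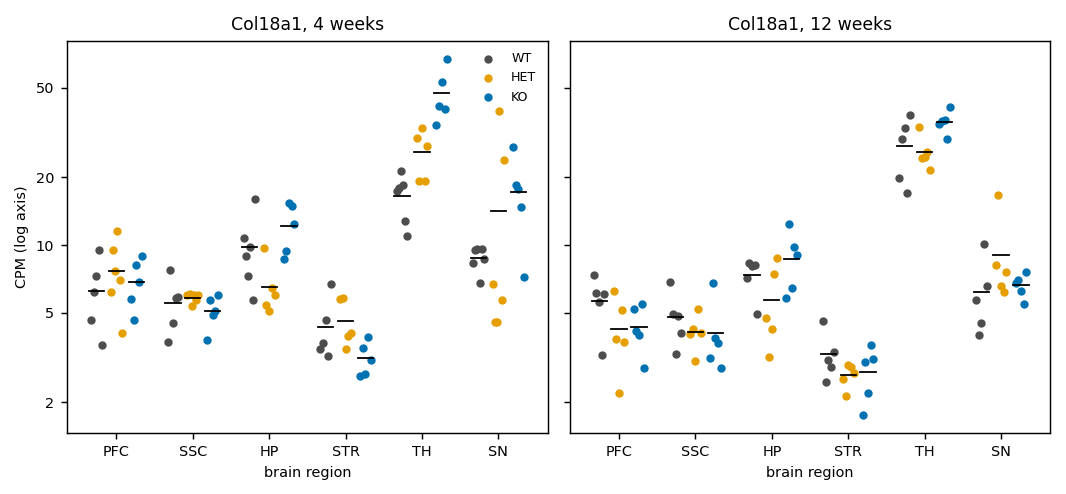
Col18a1 in each library, in CPM on a log axis, by region, for WT, HET and KO at 4 weeks (left) and 12 weeks (right); bars mark group means. In 4-week TH the KO libraries sit between 34.1 and 67.6 CPM, above all WT libraries at 11.0 to 21.3 CPM, and at 12 weeks the genotypes overlap.

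In the other regions the Col18a1 difference of KO from WT was not called. At 4 weeks it was 0.97 ± 0.51 in SN (adjusted p = 0.643), 0.32 in HP, 0.14 in PFC, -0.11 in SSC and -0.46 in STR, and at 12 weeks between -0.39 in PFC and 0.24 in HP. The SN libraries varied widely, from 4.53 to 39.7 CPM at 4 weeks. The KO effect in TH was also set against the mean of the other 5 regions. Col18a1 differed by 1.36 ± 0.34 at 4 weeks (adjusted p = 0.0105, edgeR). This test reuses the 4-week TH difference known when the genes were chosen, so it adds no support for it. With Col18a1 included, 5 of the members differed in this way, against 2.95% of all genes. Without the libraries set apart none did, and the adjusted p of Col18a1 was 0.348. At 12 weeks 1 member differed in TH, Col19a1, against 0.862%.

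The other multiplexin, Col15a1, was 13.5 ± 2.76 CPM in WT (n = 6) and 27.2 ± 8.22 CPM in KO (n = 5) of 4-week TH, 1.00 ± 0.23 higher on the log2 scale with an adjusted p of 0.122. WT libraries ranged from 8.82 to 15.6 CPM and KO libraries from 14.4 to 36.1 CPM, with overlap. At 12 weeks Col15a1 was 11.3 ± 4.83 in WT and 11.8 ± 5.18 CPM in KO, a difference of 0.06 ± 0.34. DESeq2 called Col15a1 and Col2a1 at 4 weeks, and edgeR did not.

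Col25a1 was higher in KO striatum at both ages. At 4 weeks the KO libraries held 57.0, 59.6, 62.7, 57.3 and 52.8 CPM and the WT libraries 34.5, 43.0, 43.3, 43.8 and 34.3 CPM. All KO libraries lay above all WT libraries and above the HET libraries, which held 39.6 to 41.3 CPM. KO (57.9 ± 3.66, SD, n = 5) exceeded WT (39.8 ± 4.93, n = 5) by 0.54 ± 0.08 on the log2 scale (adjusted p = 0.00116) and HET by 0.52 (adjusted p = 0.00137). No library whose removal was tried ended either call, and without the libraries set apart the difference from WT was 0.47 (adjusted p = 0.0294) and that from HET 0.43 (adjusted p = 0.0426).

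At 12 weeks the KO libraries held 39.0, 45.8, 47.7, 50.1 and 54.7 CPM of Col25a1, the WT libraries 32.3, 36.0, 45.6, 34.7 and 38.4 CPM and the HET libraries 32.6 to 37.1 CPM. KO overlapped WT through 1 WT library and lay wholly above HET. The difference from WT was 0.34 ± 0.09 (adjusted p = 0.0465), which was lost when any of 13 of the 15 libraries was left out, and that from HET was 0.42 (adjusted p = 0.0151), which was not lost. In SSC Col25a1 was below WT in KO, by -0.38 ± 0.10 in the younger mice (adjusted p = 0.325) and -0.49 ± 0.12 in the older (adjusted p = 0.646), and neither difference was called. With replicate number as a block the 12-week SSC difference was called (-0.49, adjusted p = 0.0314). The KO effect on Col25a1 was larger in STR than the average over the other 5 regions by 0.47 ± 0.13 at 12 weeks (adjusted p = 0.0313), and at 4 weeks by 0.60 ± 0.25 (adjusted p = 0.212). In all, 1 member differed in this way at 4 weeks and 2 at 12 weeks, against 3.52% and 3.11% of all genes.

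Col26a1, a short collagen outside the main classes, was lower in KO striatum at 12 weeks. The KO libraries held 1.41, 3.94, 1.90, 1.77 and 2.40 CPM, the WT libraries 7.08, 4.04, 3.22, 4.11 and 5.13 CPM and the HET libraries 3.43 to 5.11 CPM. KO lay below WT and HET except for 1 KO library at 3.94 CPM. The difference from WT was -1.05 ± 0.26 (adjusted p = 0.0255) and that from HET -0.98 (adjusted p = 0.0354). Of 15 libraries left out in turn, 6 ended the first call and 9 the second. At 4 weeks the difference from WT was -0.69 and not called in edgeR (adjusted p = 0.0812), while DESeq2 called it (-0.70, adjusted p = 0.0175). The KO effect on Col26a1 in 12-week STR differed from the other regions by -1.24 ± 0.23 (adjusted p = 0.000237).

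Col19a1 was higher in KO striatum at 4 weeks. KO libraries held 6.75, 11.3, 8.57, 7.77 and 6.79 CPM and WT libraries 4.64 to 5.66 CPM, with no overlap, and the difference was 0.68 ± 0.15 (adjusted p = 0.0214). The 3 highest KO values came from KO 161, KO 163 and KO 51, which together with WT 92 held 681 to 1444 CPM of summed markers of cortical and hippocampal excitatory neurons, against 3.44 to 113 CPM in the other 11 libraries. In those 3 KO libraries the summed striatal projection neuron markers were 6257 to 9353 CPM, against 10293 to 19039 CPM in the rest. Without these 4 libraries the Col19a1 difference was 0.41 (adjusted p = 0.213).

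Both fibrillar genes that edgeR called in 4-week KO striatum were lower. DESeq2 also called 2 fibrillar genes against HET there, Col3a1 lower (-0.56, adjusted p = 0.0260) and Col5a1 higher (2.48, adjusted p = 0.0481). Col11a2, a chain of the thin fibrils known from cartilage, was 35.2, 39.3, 27.4, 54.9 and 32.3 CPM in KO and 55.3 to 64.4 CPM in WT, without overlap, a difference of -0.64 ± 0.15 (adjusted p = 0.0301), and -0.59 from HET (adjusted p = 0.0418). Without the libraries set apart these Col11a2 differences were -0.81 (adjusted p = 0.0110) and -0.77 (adjusted p = 0.0132). Of 15 libraries left out in turn, 7 ended the call against WT and 10 that against HET. At 12 weeks Col11a2 was -0.40 against WT (adjusted p = 0.179) and -0.60 against HET (adjusted p = 0.0324). Col1a1, the main chain of type I collagen, was 3.13 ± 0.273 CPM in KO and 4.72 ± 0.599 CPM in WT (SD, n = 5 each), with KO at 2.68 to 3.39 and WT at 4.17 to 5.59 CPM. Its difference was -0.59 ± 0.15 from WT (adjusted p = 0.0433) and -0.60 from HET (adjusted p = 0.0394). Without the 4 libraries set apart the Col1a1 differences were -0.75 (adjusted p = 0.107) and -0.72 (adjusted p = 0.127), and 11 and 8 of 15 single libraries left out ended these calls. Summed fibroblast and meningeal markers there were 28.8 to 40.3 CPM in KO and 41.4 to 55.6 CPM in WT, and their part in the Col1a1 difference was not tested. At 12 weeks Col1a1 was 2.54 ± 0.542 CPM in KO and 2.25 ± 0.489 CPM in WT.

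**Figure D5:**
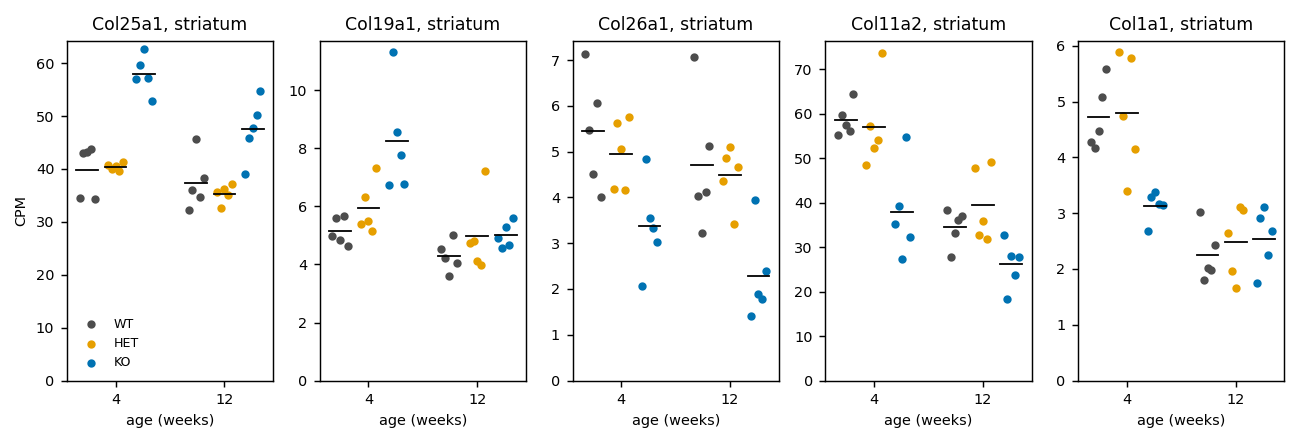
CPM of 5 collagen genes in each striatal library at 4 and 12 weeks, for WT, HET and KO; bars mark group means. Col25a1 in KO sits between 52.8 and 62.7 CPM at 4 weeks, above all WT and HET libraries, and Col26a1 in KO lies between 1.41 and 3.94 CPM at 12 weeks.

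Among the other genes of the pathway, few were called in KO against WT. Of the 17 basement membrane partners, the laminin chains Lama3 at 4 weeks (log2 -0.72, adjusted p = 0.0284) and Lamb3 at 12 weeks (-0.83, adjusted p = 0.00760) were lower in KO striatum in edgeR. In all, edgeR called 1 partner higher and 1 lower in STR at each age, against 3.35% and 4.42% of all genes called there in either direction. Over the 12 sets it called 4 of 204 tests of the partners, against 0.644% of all tests, and 0 of 216 for synthesis and folding, 0 of 139 for trimming and crosslinking, 0 of 108 for receptors and 0 of 88 for breakdown and its inhibitors. Unadjusted p-values under 0.05 numbered 31, 15, 15, 11 and 7, against 8.73% of all tests. DESeq2 called 8, 1, 1, 1 and 1, and its share over all genes is not given here.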

How the data were processed

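Bulk RNA was sequenced from 186 libraries, 96 at 4 weeks and 90 at 12 weeks, made with the Illumina TruSeq Stranded mRNA kit per the labels' protocols. The authors deposited expected counts, estimated counts per gene symbol that need not be whole; the submitters' processing notes name Salmon and mm10, while the sources used here do not give the annotation or the use of strand. Of the values above 0, 77.9% were not whole, and libraries summed to 20.8 to 73.3 M counts. These totals set the precision of low genes.

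Expected counts were rounded to whole numbers. Each region and age was fitted with its 3 genotypes together in edgeR 4.0.16 (R 4.3.3; TMM scaling, filterByExpr, glmQLFit, glmQLFTest). Ages were compared within a region with genotype in the model, and regions within an age. The p-values were adjusted by Benjamini-Hochberg over all genes tested and called under 0.05. CPM values use TMM over all 186 libraries, and lengths come from GENCODE M21 (GRCm38), which matched 44 of 44 members. Among 390 pairs of libraries of the same group the counts never agreed within sampling noise (lowest chi-square per degree of freedom 8.36). No pair thus looked like the same library sequenced again. This does not show that the libraries came from separate mice, litters or dissections. Each was counted as 1 replicate.

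Simulated data with 200 changed genes were tested first. For KO against WT in 4-week thalamus (14397 genes) 61.5% of 1.5-fold and 92% of 2-fold changes were recovered, for age in thalamus (14721 genes) 93% and 98.5%, and for thalamus against the other regions (14802 genes) 92.5% of 1.5-fold changes. With 200 changed genes the adjusted threshold is easier to pass than in the real 4-week thalamus, where 2 genes were called. No simulated library was set apart by its markers. These shares can thus overstate recovery in the data, and an uncalled gene cannot be taken as unchanged.

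The members, the gene lists and the libraries set apart were chosen with earlier results of these data known. Genes named are Col18a1, members called by genotype, the members with the largest differences per region and with age, chain partners, and the 5 highest per length. Where Col22a1, Col23a1, Col15a1 and Col2a1 are named for other reasons, they were chosen after their values were seen. Alternatives were relative log expression factors, no filter, DESeq2 1.42.0, 2 genotypes only, WT only for age, the replicate number as a block, and leaving out libraries. Dropping the 3 fibroblast-rich libraries or the 16 libraries with few whole values was chosen after seeing the data. A further gene among the pathway genes counted is not reported here by name.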

Additional observations from a re-analysis of the deposited data

Results flagged for a closer look

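In 4 of 72 groups tested for a far library, 1 library stood apart from the others of its group, and chance alone would flag about 1 group in 20. In 12-week striatum HET 5 held 7.22 CPM of Col19a1, against 3.98 to 4.81 CPM in the other 4. The sum of the 44 collagen genes was 509 CPM in 4-week PFC WT 914, against 786 to 861 CPM in the other WT libraries. It was 584 CPM in 12-week thalamus HET 1, against 425 to 449 CPM, and 3322 CPM in 4-week SN HET 941, against 471 to 1394 CPM.

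For 9 results the KO effect in a region differed from its mean in the other 5 regions by the test of that difference (edgeR, adjusted over all genes). In 4-week thalamus these were Col18a1 (log2 difference 1.36, SE 0.34, adjusted p = 0.0105), Col15a1 (1.05, SE 0.20, adjusted p = 0.000391), Col19a1 (-1.31, SE 0.36, adjusted p = 0.0237), Col23a1 (-1.56, SE 0.42, adjusted p = 0.0198) and Col2a1 (-1.09, SE 0.32, adjusted p = 0.0374). In 12-week thalamus it was Col19a1 (-1.16, SE 0.31, adjusted p = 0.0360). In striatum these were Col22a1 at 4 weeks (1.45, SE 0.44, adjusted p = 0.0473), and at 12 weeks Col25a1 (0.47, SE 0.13, adjusted p = 0.0313) and Col26a1 (-1.24, SE 0.23, adjusted p = 0.000237). Of these 9, the Col18a1 result reuses a difference known when the genes were chosen and is not independent of that choice.

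Some of these rest on few libraries. In 4-week thalamus WT 913 held 8.66 CPM of Col23a1 and WT 914 held 2.96 CPM, against a KO range of 0.882 to 1.53 CPM, and the same libraries held 3.59 and 2.72 CPM of Col19a1, against 0.447 to 1.19 CPM in KO. Without the libraries set apart none of the 5 thalamic differences of 4 weeks was called, with an adjusted p of 0.0797 for Col15a1. Col22a1 in 4-week KO striatum ranged from 0.252 to 3.08 CPM, and without the libraries set apart its difference was -0.68 (adjusted p = 0.546), of the opposite sign.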

How the results depend on the processing

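Most collagen calls by genotype moved with the setting, and those between regions and ages, summed over regions, kept their counts within 1.5 times except with WT libraries alone. Within STR, members lower with age went from 22 to 14 without the libraries set apart. For KO against WT the count at 4 weeks was 5, became 11 with DESeq2 and 1 with only 2 genotypes in the fit, and lay between 2 and 6 when single libraries were left out. At 12 weeks it was 2, and became 1 without the low-count filter, 1 with relative log expression, 0 with 2 genotypes and 4 with the replicate block, with 0 to 2 over left-out libraries. For KO against HET the count was 3 at each age. At 4 weeks it became 10 with DESeq2, 1 with 2 genotypes and 6 without the 16 libraries with few whole values, with 1 to 6 over left-out libraries, and at 12 weeks it stayed between 1 and 3. HET against WT gave 0 to 0 throughout. Fewer samples enter the fit of 2 genotypes, and the cause of the other changes was not tested. The shares of all genes called under these other settings are not given here.

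The Col18a1 difference of KO from WT in 4-week thalamus, 1.52, stayed at 1.36 to 1.62 over left-out libraries. It was 1.52 (adjusted p = 0.0622) with 2 genotypes and 1.30 (adjusted p = 0.456) without the libraries set apart. HET against WT there ran from 0.53 to 0.72 and KO against HET from 0.72 to 0.99. In 12-week thalamus the 3 comparisons ran from 0.22 to 0.50, -0.22 to 0.06 and 0.38 to 0.56. Left-out libraries ended the Col18a1 call in 1 of 16 cases. In striatum they ended the KO against WT calls of Col11a2 in 7, Col19a1 in 5 and Col1a1 in 11 of 15 cases at 4 weeks, and of Col25a1 in 13 and Col26a1 in 6 of 15 at 12 weeks. For KO against HET they ended Col11a2 in 10 and Col1a1 in 8 at 4 weeks, and Col26a1 in 9 and Col11a2 in 6 at 12 weeks.

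Member calls between regions numbered 203 at 4 weeks (201 to 204) and 206 at 12 weeks (205 to 208), with only WT and KO libraries of striatum and thalamus left out in turn. With age 10 members rose (9 to 12) and 125 fell (122 to 130); in WT alone 6 rose and 57 fell. KO effects that differed between ages stayed at 0 to 0. Members whose KO effect in a region differed from the others numbered 5 in 4-week thalamus (1 to 5; 0 without the libraries set apart), 1 in 12-week thalamus (0 to 1), 1 in 4-week striatum (0 to 4) and 2 in 12-week striatum (1 to 2). In 4-week striatum that count became 0 without the filter, 0 with relative log expression, 4 without the 3 fibroblast-rich libraries and 2 without the libraries set apart.

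At 12 weeks replicate numbers recur across genotypes, and the labels do not say what equal numbers share. In no region and pair of genotypes did all 5 same-numbered pairs correlate above 0.1 in their deviations. Yet the median correlation was mostly higher in same-numbered pairs than in other pairs. For HET and KO it was 0.26 against -0.06 in PFC and 0.16 against -0.05 in HP. Only WT and HET in STR went the other way (-0.07 against -0.03). The numbers may thus mark something shared, which the main fits ignore. With the replicate block Col11a2 in striatum (-0.42, adjusted p = 0.0103) and Col25a1 in SSC were called besides the 2 calls without it. Low counts limit all members with a mean under 1 CPM, among them Col6a5, Col6a6, Col4a3 and Col10a1.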
